A study of Homo sapiens with 32 samples.

Results

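The comparison set IGF2BP3 knockout clones against parental cells while both were under acute endoplasmic reticulum (ER) stress. It used 10 of the 32 poly(A) RNA libraries of the series, chosen by their labels: 6 from knockout cells and 4 from parental cells, all treated with 5 µg/mL tunicamycin for 4 h. All cells were HCT116, a human colorectal carcinoma line, and all carried the doxycycline-inducible OsTIR1 transgene with its puromycin marker (Tet-OsTIR1-PURO), parental cells included. The knockouts were clones A3, D12 and E4, each grown from 1 sorted cell after transient transfection with Cas9 and a guide RNA, and each gave 2 libraries. The parental group held 2 samples with 2 libraries each. The labels do not say whether libraries of a line came from separate cultures, so p-values over libraries measure a spread that may be technical. DMSO libraries of the same lines (10) and tunicamycin libraries of 3 IGF2BP2 knockout clones (6) were set beside them. For the IGF2BP2 knockout libraries the dose and time were not established here, so equal treatment was not checked.

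IGF2BP3 encodes an RNA-binding protein of the IGF2 mRNA-binding protein family, which is abundant in the embryo and in many tumours, binds many transcripts and is known for stabilizing mRNAs, m6A-modified ones among them. Tunicamycin blocks N-linked glycosylation, so that misfolded protein gathers in the ER. Cells answer with the unfolded protein response (UPR), run by the sensors ATF6, IRE1 (gene ERN1) and PERK (gene EIF2AK3), which raise chaperones, degradation factors and amino acid supply genes through the transcription factors ATF6, XBP1 and ATF4.

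The guide target sites are printed first because the clones fall into 2 designs. Each line below gives the 20 bases matched by the guide in lower case, followed in capitals by the NGG motif that Cas9 requires, 5′ to 3′ on the plus strand, which is opposite to the gene.
Clones A3 and E4: tggcaccgactgatagagctGGG
Clone D12: acgcgtagccagtcttcaccAGG
The site of clones A3 and E4 lies at chr7:23319200-23319219 (GRCh38, GENCODE annotation), inside coding exon 11 of the 15 exons of IGF2BP3, with the expected break in codon 414 of 579. The site of clone D12 lies at chr7:23469990-23470009 in exon 1, with the break in codon 35. The edited alleles were not analysed here.

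Total counts ran from 18265342 to 23588704 per library. Replicate 2 libraries had counts for more genes (23726 to 24267) than replicate 1 libraries (21483 to 22670). The first principal component (38.5% of the variance) followed the replicate number. That number was a term in the fits by the definition of the comparison, and earlier results on these data had also shown that it separates the libraries. Both libraries of clone E4 stood apart from all others on component 2 (scores -24.9 and -22.6, against -4.54 to 14.6). Markers of colorectal epithelium summed to 3990 to 5192 CPM (counts scaled to library size) in parental and 3556 to 4913 CPM in knockout libraries. The 6 markers each of fibroblasts, leukocytes and endothelium summed to at most 11.9 CPM in any of the 10 libraries, with COL1A2 and LUM at 0.

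The targeted gene was examined first. IGF2BP3 (ENSG00000136231_14) stood at 74.4, 72.9, 71.2 and 70.3 CPM in the parental libraries. In knockout libraries it stood at 19.5 and 30.2 CPM in clone A3, 21.3 and 25.3 CPM in clone E4, and 50.9 and 47.4 CPM in clone D12. All 6 knockout libraries lay below all 4 parental ones, and the transcript stayed measurable in each. The means were 72.2 ± 1.82 (SD, n = 4) and 32.4 ± 13.5 CPM (SD, n = 6), or -1.17 as a log2 fold change (SE 0.222; adjusted p 0.0141, edgeR quasi-likelihood test). With the 2 libraries of each line summed, so that lines are the unit, the adjusted p was 0.151, and without parental sample 1 or 2 it was 0.161 or 0.148. It was just above 0.05 without either replicate of parental sample 1 (0.0588 and 0.0518) or replicate 1 of sample 2 (0.0524). The level differed among the clones (adjusted p 1.04e-05 in the edgeR test of equal clone means). Guide and clone cannot be told apart for D12, the only clone with the exon 1 guide. Of the relatives, IGF2BP2 stood at 195 ± 10.2 CPM in parental and 176 ± 11.4 CPM in knockout libraries (log2 fold change -0.15, SE 0.0443, adjusted p 0.112), and IGF2BP1 was near 0.4 CPM in both.

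To ask what differs in stressed IGF2BP3 knockout cells, 14626 genes were tested with edgeR's quasi-likelihood test. The test called 333 genes (2.28% of those tested) at an adjusted p under 0.05: 242 were lower in the knockout (1.65%) and 91 higher (0.622%). Most differences were small, the median size among called genes being 0.38 on the log2 scale, and 30 lower and 6 higher genes passed 1. Over all genes the median log2 fold change was 0.01. Without the replicate term the count was 105 (17 higher, 88 lower), all of them among the 333. With lines as the unit it was 34 (2 higher, 32 lower), again all among the 333. A limma voom fit with the line as a random block called 170 (30 higher, 140 lower), of which 167 were shared. The parental side had only 2 samples, and without sample 1 the count was 41 and without sample 2 it was 37. Without 1 library it was 131 and 134 for replicates 1 and 2 of parental sample 1, 104 and 163 for those of sample 2, and 227 to 333 for a knockout library. Of 59 called genes chosen for naming, 29, 32, 29 and 22 lost their call without these 4 parental libraries in the same order. Without clone E4, which stood apart, the count was 326, and 14 of these 59 lost their call. The p-values over 10 libraries therefore overstate the precision wherever the lines differ among themselves.

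A core of 11 genes, all lower in the knockout, was called in the main fit and in each of 21 refits: without the replicate term, with lines as the unit, with the line as random block, with DESeq2, in either replicate alone, and without each library or line. Among them were SEMA3A, PKIB, CCN2, VGF, LAMB1, CNTNAP3B, TNIK, HTR7, PDLIM5 and NR2F1. In a fit to all 32 libraries, TNIK (adjusted p 0.168) and HTR7 (adjusted p 0.146) were lost. HTR7, PDLIM5 and NR2F1 lie outside the rule for named genes and were named after their values were seen.

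SEMA3A, a secreted semaphorin that repels growing axons and acts on endothelial cells, stood at 51.6, 42.9, 41.0 and 33.5 CPM in parental libraries. In the knockout it stood at 1.26 and 1.93 CPM in clone A3, 0.866 and 0.728 CPM in D12, and 2.51 and 2.74 CPM in E4. Every knockout library was far below every parental one, and the difference was -4.61 on the log2 scale (SE 0.215, adjusted p 6.87e-08). NRP1, the neuropilin co-receptor that binds SEMA3A and VEGF, stood at 16.9 to 19.4 CPM in parental and 4.10 to 13.7 CPM in knockout libraries, with D12 lowest. The difference was -0.94 on the log2 scale (SE 0.215, adjusted p 0.0359, and 0.281 with lines as the unit). These were the only 2 of 25 tested semaphorins, neuropilins and plexins that passed, both lower, against 1.65% lower and 0.622% higher over all genes. Whether the list differs from these shares was not tested. Its median log2 fold change was -0.01. SEMA3C was at 21 and 22.6 CPM in the parental and knockout means, and the plexin PLXNB2 at 300.2 and 336 CPM, neither called.

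CCN2 (connective tissue growth factor), a matricellular protein and common target of the YAP and TAZ coactivators, stood at 46.0, 54.7, 40.1 and 39.8 CPM in parental libraries. In the knockout it ranged from 14.6 to 23.5 CPM with a median of 20.2 CPM, and the groups did not overlap. The difference was -1.18 on the log2 scale (SE 0.0954, adjusted p 2.40e-05). VGF, a secreted neuropeptide precursor, fell from 44.0 ± 4.29 CPM (SD, n = 4) to 20.3 ± 3.85 CPM (SD, n = 6).

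The region before the start of CCN2 is printed because it is the gene among these with a known upstream control by TEAD factors, the DNA-binding partners of YAP and TAZ. It is the RefSeq (GRCh38.p14) stretch chr6:131951373-131951622 on the minus strand, 250 bases that end at the start site, with GGAATG, the core TEAD motif searched on both strands, in capitals.
CCN2: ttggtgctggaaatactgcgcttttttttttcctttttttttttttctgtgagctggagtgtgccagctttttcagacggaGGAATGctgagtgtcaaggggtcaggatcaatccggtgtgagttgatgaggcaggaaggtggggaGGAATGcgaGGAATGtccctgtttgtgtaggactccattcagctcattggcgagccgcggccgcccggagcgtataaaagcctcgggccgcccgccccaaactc
The motif occurs 3 times here, and 11.9% of 35116 windows of this length hold it at least once. RefSeq promoters were found for 49 of the 66 genes chosen for naming. C1orf116 also held 3 matches and DKK1 and ERN1 held 1 each; a match is a description of the letters.

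Signalling through cAMP and protein kinase A held 4 lower and no higher genes among 19 tested (median log2 fold change -0.08). The shares over all genes were 1.65% lower and 0.622% higher, and whether the list differs from them was not tested. PKIB, a peptide inhibitor of protein kinase A, stood at 19.7, 23.1, 13.2 and 11.6 CPM in parental libraries. In the knockout it stood at 6.93 and 4.70 CPM in A3, 5.14 and 4.78 CPM in D12 and 4.20 and 2.78 CPM in E4. No knockout library reached the lowest parental one, and the difference was -1.80 on the log2 scale (SE 0.155, adjusted p 3.50e-05). PRKACB, a catalytic subunit of the kinase, fell from 213 ± 12.1 to 153 ± 19.1 CPM (log2 fold change -0.48, adjusted p 0.00776). PDE4B, a phosphodiesterase that degrades cAMP, fell from 141 ± 5.55 to 112 ± 12.7 CPM (log2 fold change -0.34, adjusted p 0.0182). PDE4D, of the same family, was low throughout at 1.24 ± 0.26 and 0.318 ± 0.224 CPM (log2 fold change -1.91, adjusted p 0.0148). With lines as the unit only PKIB kept its call in the list.

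Among the laminins LAMB1 fell and LAMA3 rose. LAMB1, a laminin beta chain of basement membranes, stood at 53.5 to 60.7 CPM in the 4 parental and 29.8 to 38.6 CPM in the 6 knockout libraries (log2 fold change -0.71, SE 0.0686, adjusted p 0.000108). LAMA3, an alpha chain of epithelial laminin, stood at 2.90 to 3.96 CPM in parental and 4.5 to 6.09 CPM in knockout libraries (log2 fold change 0.71, adjusted p 0.0124). They were the only 2 called of 10 tested laminins. For the laminins and the integrins, the shares over all genes were 1.65% lower and 0.622% higher, and whether the lists differ from them was not tested. ITGA2, a collagen-binding integrin chain, was the only one called of 12 integrins, lower by a log2 fold change of -0.52 (adjusted p 0.0201). Its knockout libraries reached 95.6 CPM and overlapped the parental range, which began at 95.2 CPM. With lines as the unit LAMA3 (adjusted p 0.151) and ITGA2 (0.0636) lost their calls, and ITGA2 also without the replicate term (0.0634) and with the line as random block (0.0518). PDLIM5, an actin-associated scaffold protein, stood at 224 to 274 CPM in parental and 114 to 150 CPM in knockout libraries (log2 fold change -0.88, adjusted p 2.59e-05).

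Of the other core genes, NR2F1, an orphan nuclear receptor, went from 91.0 ± 10.2 to 49.2 ± 8.37 CPM (log2 fold change -0.89, adjusted p 0.000488). TNIK, a kinase that works with TCF4 in Wnt signalling, stood at 57.5 to 88.7 CPM in parental and 31.6 to 44.1 CPM in knockout libraries. HTR7, a serotonin receptor, stood at 58.4 to 61.3 CPM and 27.0 to 36.0 CPM.

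Of the other large decreases, TMEM200A, a membrane protein, stood at 64.7 to 73.0 CPM in parental libraries, at 38.9 and 37.2 CPM in A3, 29.1 and 22.3 CPM in D12 and 11 and 9.95 CPM in E4 (log2 fold change -1.49, adjusted p 0.0168). GRIN2B, an NMDA receptor subunit, averaged 13.1 ± 1.48 and 6.01 ± 2.40 CPM. SLC16A6, a monocarboxylate transporter family member, averaged 28.2 ± 0.76 and 14.9 ± 4.25 CPM. SYT12, a synaptotagmin, averaged 10.9 ± 1.12 and 5.67 ± 1.13 CPM, and SAMD5 averaged 10.1 ± 0.445 and 4.36 ± 1.38 CPM. CNTNAP3 (15.7 and 6.74 CPM) and CNTNAP3B (19.5 and 9.39 CPM), contactin-associated cell adhesion proteins, are near-identical copies on chromosome 9, so reads could be split between them and their separate values are uncertain. With lines as the unit TMEM200A (adjusted p 0.19), GRIN2B (0.183), CNTNAP3 (0.0937), SLC16A6 (0.0585) and SYT12 (0.056) lost their calls, while CNTNAP3B (0.00677) and SAMD5 (0.0491) stayed under 0.05. TMEM200A and GRIN2B were also lost without the replicate term (0.0525 and 0.07).

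Of the 10 largest increases under the naming rule (a mean count of at least 100 and no overlap between the groups), the first 3 were histone genes. H2AC6, an H2A gene, stood at 2.98 to 3.98 CPM in parental libraries, at 9.83 and 10.3 CPM in A3, 6.18 and 5.51 CPM in D12 and 14.5 and 17.2 CPM in E4. The difference was 1.65 on the log2 scale (SE 0.293, adjusted p 0.00963). H1-2, a linker histone, averaged 9.87 ± 1.47 and 25.9 ± 10.9 CPM (log2 fold change 1.40, adjusted p 0.0132), and H2BC12, an H2B gene, 7.70 ± 1.13 and 16.8 ± 5.35 CPM (log2 fold change 1.13, adjusted p 0.0132). For all 3 the order was E4, A3, D12, parental. Of 24 histone genes on the list 13 were tested, and these 3 rose while none fell (median log2 fold change 0.63). Over all genes the shares were 0.622% higher and 1.65% lower. None of the 3 was called with lines as the unit (adjusted p 0.140 to 0.161). H4C9, an H4 gene that lies outside the list and the rule and was named after its values were seen, also rose (log2 fold change 1.18, adjusted p 0.00739) at a mean count of 53.2. Canonical histone mRNAs end without a poly(A) tail, so poly(A)-selected libraries see only a polyadenylated fraction of them, and histone genes share sequence with their copies.

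Of the other increases, C1orf116, an androgen-responsive gene, stood at 11.8 to 13.7 CPM in parental libraries, at 15.2 and 17.5 CPM in D12 and at 27.2 to 34.5 CPM in A3 and E4 (log2 fold change 1.06, adjusted p 0.0148). CYP1A1, the detoxifying enzyme induced by the aryl hydrocarbon receptor, stood at 3.28 to 5.75 CPM in parental and 6.19 to 10.5 CPM in knockout libraries (log2 fold change 1.04, SE 0.152, adjusted p 0.00249). It was the only one of these 10 that kept its call with lines as the unit (adjusted p 0.0462). SLC1A3, a glutamate and aspartate transporter, averaged 5.30 and 9.64 CPM. ATP8B1, a phospholipid flippase, averaged 9.62 and 15.2 CPM, MECOM, a zinc finger transcription factor, 11.6 and 17.5 CPM, and ZBED2, a zinc finger protein, 21.8 and 34.6 CPM.

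**Figure D1:**
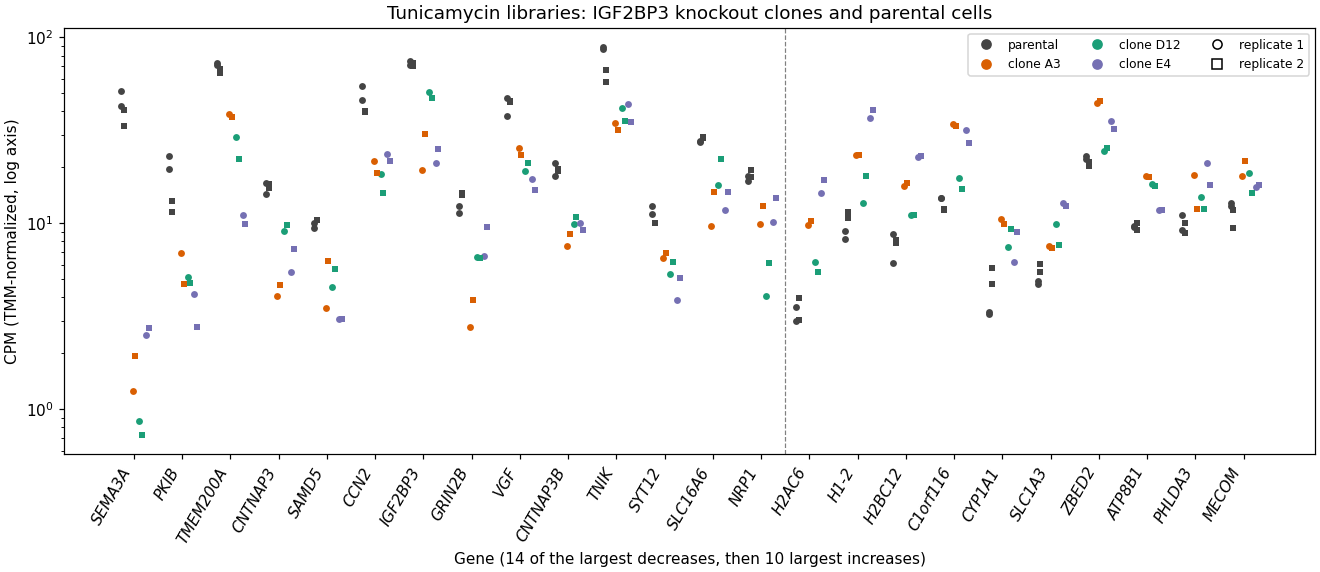
TMM-normalized CPM (log axis) in each of the 10 tunicamycin libraries for 14 of the largest decreases and the 10 largest increases that met the naming rule; circles are replicate 1 and squares replicate 2, and colours mark parental cells and clones A3, D12 and E4. The parental points lie on one side of all clone points for each gene, which the rule required, and SEMA3A has the widest gap, from 33.5 CPM in the lowest parental library to 2.74 CPM in the highest knockout library.

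The clones differed from one another as well as from the parental cells. Over all genes, 1038 (7.10% of those tested) differed among A3, D12 and E4 at an adjusted p under 0.05 in edgeR. Between the 2 parental samples 0 differed (smallest adjusted p 0.066), with 1468 at an unadjusted p under 0.05. The first test covered 3 clones with 6 libraries and the second 2 samples with 4, so the 2 counts are not alike in power. Without the replicate term 132 genes differed among the clones. Of the 333 called genes, 64 differed among the clones, and 215 had all knockout libraries on one side of all parental ones (161 lower and 54 higher, against 1.83% and 1.24% of all genes tested). The calls were made on these same libraries, so the 215 cannot be weighed against those shares and are no separate support. Among the genes named for size, 9 of the 14 decreases shown and 8 of the 10 increases differed among the clones. CNTNAP3B, TNIK, PKIB, SAMD5, SYT12, CYP1A1 and MECOM were those without such a call.

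Clones of the other knockout were set beside these, and loss of IGF2BP2 and differences between clones cannot be told apart in them. In the 3 IGF2BP2 knockout clones under tunicamycin, SEMA3A stood at 80.6 CPM in clone B7, 141.6 CPM in G6 and 5.62 CPM in F6, on either side of the parental mean of 42.2 CPM. TNIK stood at 23.3 CPM in B7 and 20.4 CPM in F6, below each IGF2BP3 knockout clone mean (33.2 to 39.6 CPM), and at 74.0 CPM in G6. NRP1 stood at 2.20 CPM in B7 and C1orf116 at 50.4 CPM in F6, both further from the parental mean than in any IGF2BP3 knockout clone. For all 14 decreases shown and all 10 increases, the range of the IGF2BP2 knockout libraries overlapped the parental range. That includes genes with clones on both sides of the parental range, such as SEMA3A, so it does not mean parental-like levels. The naming rule had required no overlap for the IGF2BP3 knockout libraries only. This contrast therefore cannot show that the differences are particular to that knockout, and the share over all genes was not counted. In a direct test of IGF2BP3 against IGF2BP2 knockout under tunicamycin, 214 of 14066 genes (1.52%) were called, 97 higher (0.69%) and 117 lower (0.832%). That count was 55 without the replicate term, and 24 to 498 when single clones were left out. Of the named genes, 4 of the 14 decreases shown (SEMA3A, PKIB, SYT12 and IGF2BP3 itself) and 3 of the 10 increases (the histone genes) were called between the knockouts. They had been chosen on the same IGF2BP3 knockout libraries that this test used, so their share cannot be weighed against the 1.52%. SEMA3A differed by a log2 fold change of -5.47 (adjusted p 0.0113), PKIB by -1.16 (adjusted p 0.0113) and H1-2 by 1.77 (adjusted p 0.0113). CCN2 missed the threshold at -1.12 (adjusted p 0.0528), and TNIK stood at -0.08 (adjusted p 0.929).

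**Figure D2:**
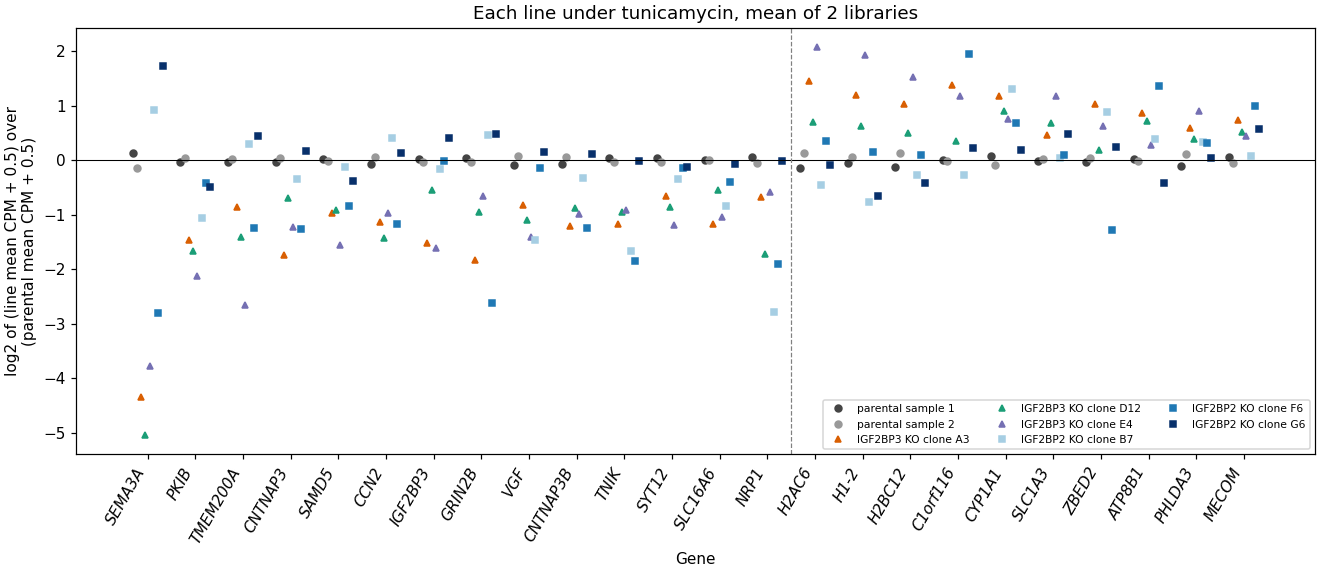
Log2 of each line's mean CPM under tunicamycin over the parental mean (0.5 CPM added to both) for the same 24 genes; circles are the 2 parental samples, triangles the 3 IGF2BP3 knockout clones and squares the 3 IGF2BP2 knockout clones, each the mean of 2 libraries. Parental samples sit near 0, and IGF2BP3 clones lie on one side, which the naming rule required. IGF2BP2 clones spread over both sides for several genes, such as SEMA3A at 5.62 CPM in F6 and 141.6 CPM in G6.

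The UPR was compared next, since all 10 libraries were stressed. HSPA5, the ER chaperone BiP and a classic ATF6 target, stood at 10896, 9842, 9799 and 9205 CPM in parental libraries. In the knockout it stood at 9063 and 8071 CPM in A3, 8727 and 8387 CPM in D12 and 8059 and 7909 CPM in E4. The highest knockout library lay just below the lowest parental one. The difference was -0.25 on the log2 scale (SE 0.0452, adjusted p 0.0114), against 0.01 (adjusted p 0.923) in DMSO, where the means were 976 and 983 CPM. The call was lost without the replicate term (adjusted p 0.0634), with lines as the unit (0.172), and without parental sample 1 (0.221), either of its replicates (0.0606 and 0.0555) or parental sample 2 (0.0541). CRELD2, an ER-resident folding factor, was at 153 ± 6.96 and 137 ± 6.62 CPM (log2 fold change -0.17, adjusted p 0.0470) and lost its call in 22 of 26 alternatives.

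These were the 2 of 14 ATF6 targets that fell, and none rose, against 1.65% lower and 0.622% higher over all genes. The list's median log2 fold change was -0.09, with 13 of 14 members below 0, against 0.01 over all genes; in DMSO the list held no called gene and its median was 0.05. Of 20 IRE1/XBP1 targets 1 fell, SEC24D, a COPII coat subunit for export from the ER (161 and 132 CPM, log2 fold change -0.29, adjusted p 0.0182). None rose, and the median was -0.08. SEC24D was also lower in DMSO (log2 fold change -0.25, adjusted p 0.0247). DNAJB9, an ER co-chaperone on that list, was at 162 ± 12.7 and 150 ± 6.99 CPM and was not called (log2 fold change -0.12, adjusted p 0.198). With lines as the unit no gene of either list was called.

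The PERK branch held no called gene among 18 targets (median log2 fold change -0.04). For this list and the others in this paragraph, the shares over all genes were 1.65% lower and 0.622% higher. ATF4, the transcription factor translated when PERK is active, was at 914 ± 84.1 and 871 ± 65.4 CPM (log2 fold change -0.07, SE 0.0402, adjusted p 0.430). DDIT3, the factor CHOP that ATF4 induces, was at 236 ± 29.4 and 245 ± 34.0 CPM (log2 fold change 0.05, SE 0.0577, adjusted p 0.707). None of 19 ER-associated degradation genes and none of 15 ER stress cell death genes was called. Among 9 tested sensors and their partners, ERN1, the gene of IRE1, fell from 43.6 ± 2.7 to 36.7 ± 1.45 CPM (log2 fold change -0.25, SE 0.0510, adjusted p 0.0204, and 0.251 with lines as the unit). EIF2AK3 was at 84.5 and 78.4 CPM and ATF6 at 99.7 and 101 CPM, not called. Unspliced and spliced XBP1 cannot be told apart in counts per gene; total XBP1 was at 257 ± 33.0 and 256 ± 26.8 CPM (log2 fold change -0.0044, SE 0.0451). COL6A1, a collagen chain whose mRNA IRE1 can cleave, was the only one called of 6 tested decay substrates, lower from 84.0 ± 8.49 to 72.1 ± 5.17 CPM (adjusted p 0.0335). Its call was lost without the replicate term (0.215), with lines as the unit (0.306) and with the line as random block (0.0718), which left no call in that list.

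The promoter of HSPA5 is printed because it carries the element through which ATF6 acts. It is the RefSeq (GRCh38.p14) stretch chr9:125241344-125241593 on the minus strand, 250 bases that end at the start site, with the ER stress element, CCAAT and CCACG with 9 bases between them, searched on both strands, in capitals.
HSPA5: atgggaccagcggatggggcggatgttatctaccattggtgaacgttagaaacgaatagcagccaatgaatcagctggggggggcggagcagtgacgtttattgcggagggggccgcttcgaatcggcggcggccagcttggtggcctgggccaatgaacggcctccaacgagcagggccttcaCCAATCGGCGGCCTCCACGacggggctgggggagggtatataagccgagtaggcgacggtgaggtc
The full element was found in 26 of the 35116 windows (0.074%). CRELD2 and XBP1 each held 1 match among the named genes in the table.

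**Figure D3:**
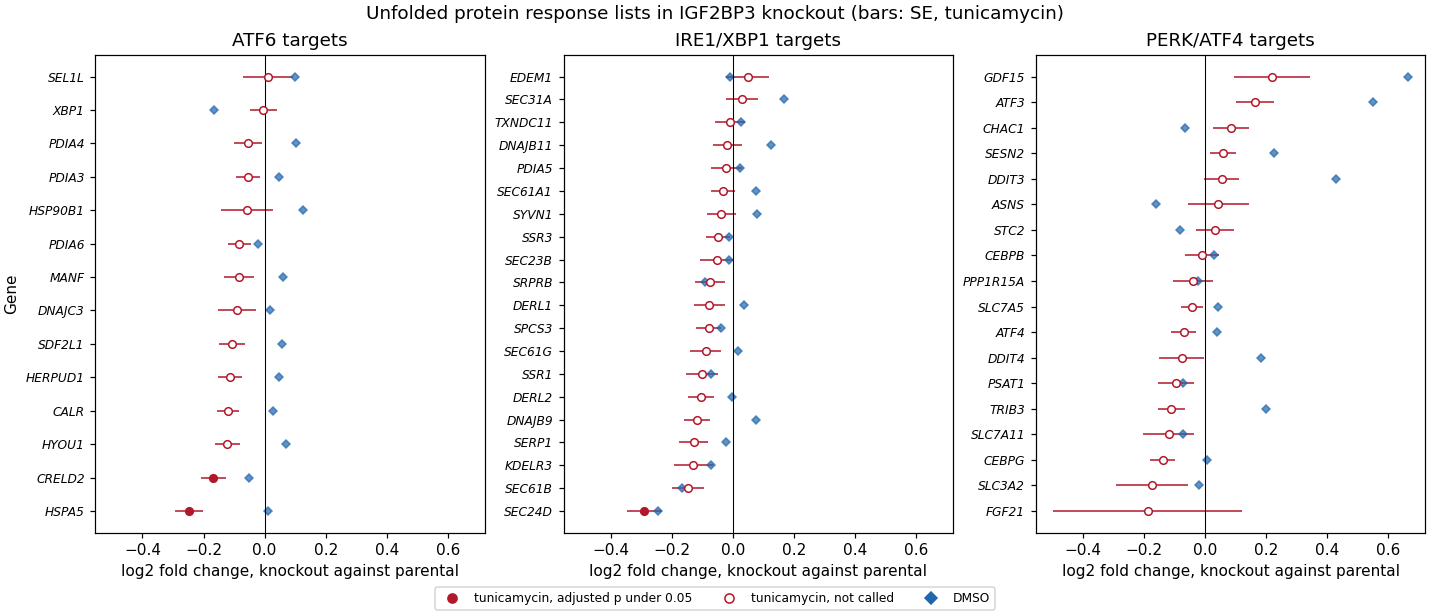
Log2 fold change of knockout against parental cells for each tested member of the ATF6, IRE1/XBP1 and PERK/ATF4 lists; circles are tunicamycin values with their SE (filled where called) and diamonds are DMSO values. Most ATF6 targets sit left of 0 in tunicamycin, with HSPA5 at -0.25 the lowest of that list, and right of 0 in DMSO.

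Whether the knockout difference itself changed with the drug was tested as an interaction over 20 libraries. In edgeR, 0 of 15313 genes (0%) passed at an adjusted p under 0.05, with 522 (3.41%) at an unadjusted p under 0.05; DESeq2 called 1 gene, TNFRSF10B (adjusted p 0.0486). TNFRSF10B, the TRAIL death receptor DR5, had log2 fold changes of -0.06 in tunicamycin (adjusted p 0.584) and 0.23 in DMSO (adjusted p 0.0139). Its interaction p was 4.23e-05 before adjustment and 0.265 after it in edgeR. GEM, a small GTP-binding protein, had -0.48 in tunicamycin (adjusted p 0.0388) and -0.07 in DMSO (adjusted p 0.774), with an interaction p of 4.33e-05 (adjusted 0.265); its tunicamycin call was lost without the replicate term (0.132) and with lines as the unit (0.29). HSPA5 had an interaction p of 0.000197 (adjusted 0.604), and 8 of the 14 ATF6 targets had an unadjusted interaction p under 0.05, with a median interaction of -0.14. Other lists held such genes too: 4 of 18 PERK targets (median interaction -0.12, with 2 targets called higher in DMSO), 3 of 20 IRE1/XBP1 targets (-0.04), 6 of 20 p53 targets (-0.03) and 3 of 15 ER stress cell death genes (-0.04), against a median of 0.01 over all genes. Whether the lists differ in this was not tested.

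Most of what was called under tunicamycin was also called without it. In DMSO 513 of 14568 genes (3.52%) were called, 203 higher (1.39%) and 310 lower (2.13%). That count was 235 without the replicate term, 36 and 27 without parental samples 1 and 2, and 896 without clone E4. Genes called in both numbered 221, which is 66.4% of the tunicamycin calls and 43.1% of the DMSO calls, and all 221 had the same sign. The 2 comparisons share their lines but not their libraries. Of the genes named for size, all 14 decreases shown were called in DMSO and 9 of the 10 increases; ZBED2 was not (log2 fold change 0.44, adjusted p 0.0667). SEMA3A stood at 45.9 ± 9.96 CPM in parental and 1.73 ± 0.956 CPM in knockout DMSO libraries, a log2 fold change of -4.72. CCN2 was at 17.9 and 9.75 CPM in DMSO, with a log2 fold change of -0.87 against -1.18 in tunicamycin (interaction p 0.0103, adjusted 1.00). IGF2BP3 itself had -1.48 in DMSO against -1.17 (interaction p 0.0104, adjusted 1.00).

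**Figure D4:**
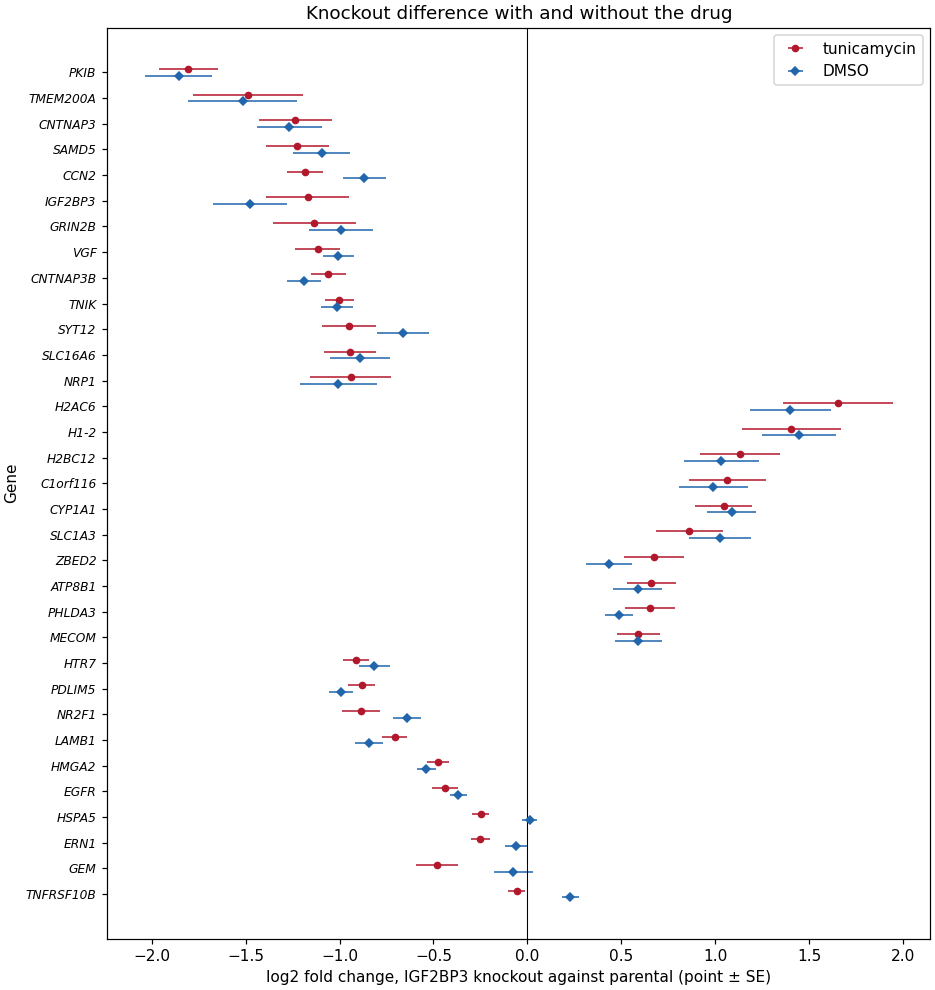
Log2 fold change of IGF2BP3 knockout against parental cells (point ± SE) in tunicamycin (circles) and DMSO (diamonds) for named genes other than SEMA3A, which is off the scale at -4.61 and -4.72. The pairs of points lie close together for most genes, while HSPA5 is at -0.25 and 0.01 and GEM at -0.48 and -0.07.

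A list of transcripts published as IGF2BP targets was examined next. Of 18 tested, 3 fell and none rose, against 1.65% lower and 0.622% higher over all genes, and the median log2 fold change was -0.04. HMGA2, a chromatin architectural factor, stood at 355, 356, 394 and 384 CPM in parental libraries and at 227 to 332 CPM in knockout libraries, with no overlap. The difference was -0.48 on the log2 scale (SE 0.0572, adjusted p 0.000707), and it kept its call with lines as the unit (0.0248) but not without the replicate term (0.0916). In IGF2BP2 knockout clones it stood at 377 to 443 CPM, and the knockouts differed by -0.59 (adjusted p 0.00169). EGFR, the epidermal growth factor receptor, fell from 268 ± 15.0 to 198 ± 19.0 CPM (log2 fold change -0.44, adjusted p 0.00444). BCL2, a survival factor, was low at 1.77 and 0.780 CPM (log2 fold change -1.19, adjusted p 0.0107). EGFR and BCL2 were not called with lines as the unit (adjusted p 0.0717 and 0.0795). MYC was at 533 and 405 CPM (log2 fold change -0.38, adjusted p 0.113) and CD44 at 391 and 304 CPM (-0.35, adjusted p 0.0989), not called. CCND1 was at 833 CPM in both, with a log2 fold change of -0.000923.

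Genes of EGF family signalling and its ERK feedback held 4 lower and 1 higher member among 20 tested (median -0.10). For this list and the next ones, the shares over all genes were 1.65% lower and 0.622% higher. Besides EGFR, the ligand AREG fell from 1201 ± 92.4 to 810 ± 174 CPM, with 633 to 737 CPM in D12 and E4 and 985 and 1070 CPM in A3. The ligand BTC fell from 4.05 to 2.82 CPM, and the phosphatase DUSP6, which switches off ERK, from 252 ± 23.4 to 199 ± 12 CPM (log2 fold change -0.34, adjusted p 0.00163). The ligand TGFA rose from 88.1 ± 10.4 to 107 ± 13.6 CPM (log2 fold change 0.29, adjusted p 0.0315), with overlapping ranges. DUSP6 alone of these kept its call with lines as the unit (adjusted p 0.0467). Of 19 immediate early genes CCN2, FOSL2 and KLF6 fell and none rose. CCN2 was the only one of them called without the replicate term, with lines as the unit or with the line as random block, where FOSL2 had adjusted p-values of 0.112, 0.286 and 0.0769 and KLF6 of 0.165, 0.162 and 0.0873. Of 9 Wnt genes DKK1, a secreted Wnt antagonist, fell from 573 ± 68.3 to 411 ± 34.1 CPM (adjusted p 0.00134).

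Against 0.622% higher and 1.65% lower over all genes, 3 of 20 p53 targets rose and none fell (median log2 fold change 0.13). They were PHLDA3, an inhibitor of AKT (9.81 ± 0.994 to 15.5 ± 3.67 CPM, log2 fold change 0.65, adjusted p 0.0193), FAS, a death receptor (13.4 to 17.4 CPM, 0.38, adjusted p 0.0364), and MDM2, the ubiquitin ligase of p53 (118 ± 4.17 to 144 ± 13.6 CPM, 0.29, adjusted p 0.0315). CDKN1A, the cell cycle inhibitor p21, was at 187 and 227 CPM and was not called (adjusted p 0.115). In DMSO 8 of these targets were called, all higher. None of the 3 was called with lines as the unit. Without the replicate term all of them were lost too (adjusted p 0.0866 for PHLDA3, 0.116 for FAS and 0.118 for MDM2, edgeR). With the line as random block FAS (0.0956) and MDM2 (0.0538) were lost. Of 24 replication and mitosis genes 1 rose, BUB1, a spindle checkpoint kinase (130 to 150 CPM, adjusted p 0.0339). BUB1 was not called without the replicate term (0.165), with lines as the unit (0.341) or with the line as random block (0.0655), which left no call in that list.

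RNA modification and decay genes showed few calls. None of 17 m6A writers, erasers and readers was called; METTL3, the methyltransferase, was at 43.2 and 50.3 CPM (adjusted p 0.123). Of 31 genes of the mRNA decay machinery CNOT6L, a deadenylase of the CCR4-NOT complex, fell from 39.3 to 33.9 CPM (adjusted p 0.0359). ZFP36L1, which recruits that complex to AU-rich mRNAs, fell from 244 ± 35.7 to 184 ± 30.1 CPM (adjusted p 0.00779), with ranges that overlapped. Of 11 decay-sensitive noncoding host transcripts SNHG29 fell (292 to 246 CPM, adjusted p 0.0241). None of 15 tested interferon-stimulated genes and none of 20 cholesterol synthesis genes was called. Among the epithelial markers EPCAM rose from 246 ± 23.3 to 298 ± 41.6 CPM (adjusted p 0.0331) and KRT18 fell from 725 ± 111 to 555 ± 67.7 CPM (adjusted p 0.00134). Without the replicate term none of these 5 genes was called (adjusted p 0.106 for CNOT6L, 0.165 for ZFP36L1, 0.245 for SNHG29, 0.286 for EPCAM and 0.115 for KRT18), nor with lines as the unit (0.315, 0.144, 0.18, 0.306 and 0.0533 in the same order). With the line as random block CNOT6L (0.0882), SNHG29 (0.0551) and EPCAM (0.0518) were lost.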

How the data were processed

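The file the authors deposited holds raw read counts per gene for 32 libraries. Reads were aligned with STAR 2.7.5c to hg38, per the submitters' processing notes; the counting tool, annotation and strand setting are not given in the sources used here. Of 60660 identifiers, 42060 had a symbol, and all columns were matched to samples. Groups and replicate numbers come from the titles. CPM values were normalized by TMM over all libraries. Each comparison was fitted with edgeR 4.0.16 (R 4.3.3; TMM, filterByExpr, quasi-likelihood test, Benjamini-Hochberg adjustment over all genes tested, threshold 0.05) with the replicate number as a term; the SE is the one implied by the F statistic. Deviations from line means correlated between lines with the same number (r 0.426 to 0.617 over 10 pairs), so the numbers pair the samples. The interaction also had the line as a term. Within groups, counts differed by more than sampling noise in all 21 pairs of libraries.

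Named genes were the up to 16 largest decreases and 10 largest increases among called genes with a symbol, a mean count of at least 100 and all knockout libraries on one side of all parental ones. Called members of the gene lists, the IGF2BP family, 5 UPR genes and the 2 smallest interaction p-values were added. Some genes so chosen are not reported here. The comparison, the lists and the rule were chosen with earlier results of these data known. Alternatives used limma 3.58.1, DESeq2 1.42.0, other scaling and filters, summed lines and left-out libraries. The fits were tested on simulated counts, drawn independently for each library without differences between lines. That test therefore does not cover the spread among clones.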

Additional observations from a re-analysis of the deposited data

Results flagged for a closer look

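For each gene chosen for naming and for total counts, the most extreme library of a group was compared with the rest by Dixon's gap criterion (gap over range, at its 95% critical value). Of 134 groups 3 exceeded it (2.24%). The criterion's rate of about 1 in 20 assumes independent values. Libraries of the same line are not independent and most of these genes were chosen as called, so the 2 shares cannot be compared. IGF2BP2 stood at 197.6 CPM in replicate 1 of clone A3, against 165 to 177 CPM in the other knockout libraries. CNOT6L stood at 36.9 CPM in replicate 2 of parental sample 2, against 39.9 to 40.2 CPM in the other parental libraries. Without that library its adjusted p was 0.0632 (edgeR), against 0.0359 with it. PDE4D stood at 1.63 CPM in replicate 1 of parental sample 1, against 1.09 to 1.14 CPM in the other parental libraries.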

How the results depend on the processing

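Under tunicamycin the count of 333 genes became 105 without the replicate block, 34 with lines summed, 170 in the limma voom fit with the line as random block, 536 with DESeq2 and the block, 774 with no filter on low counts, 36 above an absolute log2 fold change of 1, and 24 or 13 in replicate 1 or 2 alone. Leaving out libraries or lines gave 37 to 394. Other scaling, a mean CPM of at least 1, DESeq2 without the block and all 32 libraries in 1 fit gave 225 to 342. In DMSO the 513 genes became 235 without the replicate block and 27 to 896 with lines left out. Between the knockouts the 214 genes became 55 without the replicate block, 837 with DESeq2 and 24 to 498 with clones left out. The 1038 genes that differed among clones became 132 without the replicate block, and the interaction's count of 0 became 1 with DESeq2. The cause of these shifts was not tested, beyond the fewer samples that leaving out leaves. Of the 66 genes chosen for naming 3, none of them called, changed sign. IGF2BP1 was at 0.000229 on the log2 scale in the voom fit and at -0.422 to 0.211 with libraries or lines left out. XBP1 was at 0.0154 in replicate 2 alone and at -0.0599 to 0.0584 with libraries left out. DDIT3 was at -0.0167 to 0.107 with libraries left out. Of the 59 called ones, 28 lost their call without the replicate block, 43 with lines summed and 18 in the voom fit. At 18265342 to 23588704 counts a library, genes near 1 CPM, such as BCL2 and PDE4D, rest on few reads.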

Other observations

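Groups of called genes outside the lists were looked at after their values were seen. Of 81 ribosomal protein genes tested under tunicamycin, 8 fell, none rose and 76 lay below 0, with a median log2 fold change of -0.11; over all 14626 genes, 1.65% were called lower and 7060 lay below 0. In DMSO 63 of 81 lay below 0, 1 was called higher and none lower, with a median of -0.05. Over the alternatives the median ran from -0.155 to -0.0657, but the count of 8 was 0 with lines as the unit, without the replicate term, in either replicate alone and without replicate 1 of parental sample 2. It was 1 without replicate 1 of parental sample 1 or replicate 2 of sample 2, 2 without either library of clone E4, 3 without D12 replicate 1 or A3 replicate 2, and 17 without D12 replicate 2. Without parental sample 1 or 2 it was 1 or 0, and without clone A3, D12 or E4 it was 3, 17 or 2. RPL28 had the lowest adjusted p of the 8 (log2 fold change -0.27, SE 0.0477, adjusted p 0.00931).

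Further transcription factors were lower in all 6 knockout libraries than in all 4 parental ones: FOXC1 (log2 fold change -0.77, adjusted p 0.000488, edgeR), ETS1 (-0.70, adjusted p 0.00467), MKX (-0.64, adjusted p 0.000361), WWTR1, which encodes TAZ (-0.43, adjusted p 0.00475), and NFIB (-0.43, adjusted p 0.00397). Others were higher in all 6, such as NR1D1 (0.45, adjusted p 0.0203), RARG (0.42, adjusted p 0.00739) and NFIA (0.40, adjusted p 0.0101). The secreted proteins THBS1 (thrombospondin 1, -0.87, adjusted p 0.0148), LOXL2 (a matrix cross-linking oxidase, -0.67, adjusted p 0.00134) and LIF (a cytokine, -0.50, adjusted p 0.0175) were lower in all 6. HMOX1, heme oxygenase 1, was higher (0.57, adjusted p 0.0114). The clones differed for THBS1 (adjusted p 0.0043, edgeR test of equal clone means), LIF (0.00141), FOXC1 (0.015), MKX (0.0116) and NR1D1 (0.000867). With lines as the unit only 34 of the 333 calls stayed, and values of these genes in that fit are not reported here.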
